A study of Homo sapiens with 6 samples.

Results

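The mucins described here are 10 genes of the epithelial mucus and glycocalyx: MUC1, MUC3A, MUC4, MUC12, MUC13, MUC17 and MUC20, whose proteins are anchored in the membrane, and MUC2, MUC5AC and MUC5B, whose proteins are secreted and form gels. They were chosen by gene symbol, and all 10 were found among the 30676 genes of the deposited table. The libraries are RNA from cells labelled HCT116, an established colorectal cancer line of labelled genotype WT. All were held for 24 hours at 1% oxygen, with DMSO at 0.1% in 3 libraries and with GIA, a genistein isoflavonoid alkaloid, at 10 µM in the other 3. The labels give no DMSO content for the GIA libraries, there was no group at normal oxygen, and no label says that replicate libraries were grown apart. The p-values therefore rest on library-to-library spread that may be technical. The question addressed is whether GIA alters mucin transcripts in cells kept at low oxygen.

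Mucins are large glycoproteins whose central stretches are rich in serine, threonine and proline and carry dense O-linked sugar chains. Secreted mucins are linked into polymers through cysteine-rich ends and build the mucus gel, in the colon mainly from MUC2 made by goblet cells. Membrane mucins stand on the apical surface of epithelial cells, where they form the glycocalyx and can pass signals to receptors inside and beside the membrane.

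MUC13 and MUC1 were the only members above 0.5 FPKM (fragments scaled to gene length and library size), and together they made up 99.6% to 99.8% of the summed FPKM of the 10 genes in each library. The other 8 members lay at or below 0.158 FPKM in every library. Neither MUC13 nor MUC1 differed between GIA and DMSO beyond the spread between libraries, and both were highest in the same GIA library. Of the 10 members, 2 passed the filter for testing (a mean of at least 0.5 FPKM) and 0 of those 2 passed the test, against 0% of 13721 tested genes (edgeR's quasi-likelihood test, Benjamini-Hochberg adjusted p under 0.05). At an unadjusted p under 0.05 there were 0 of the 2, against 4.59% of tested genes.

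Library totals ran from 55725249 to 67835059 estimated counts, each GIA library above each DMSO library, and about 4 counts may stand for 1 fragment. GIA library 2 stood apart in the chi-square per degree of freedom between its counts and those of each other library. This was 6.38 to 10.5, against 2.80 to 4.52 for the other pairs. Results for MUC13, MUC1, MUC3A, MUC20 and MUC5B are therefore also given without it. So are the medians of the folding and transcription factor lists. Fold changes of single genes of the lists are given with all libraries only. That chi-square was computed on counts divided by 4, for genes with high counts only, and its size depends on the divisor. The colonic epithelial label was checked with 19 markers, of which 14 were in the table and 7 passed the filter. The keratins KRT18 and KRT8 had 255 and 146 FPKM over the 6 libraries, and KRT19 27.7. The surface protein TSPAN8 had 26.6 FPKM, the epithelial factor ELF3 15.5 and the tight junction protein CLDN7 11.6. CLDN4 and CLDN3 had 0.917 and 0.328. EPCAM had 0.252 FPKM, the epithelial cadherin CDH1 0.0362, the brush border protein VIL1 0.00376 and the intestinal cadherin CDH17 0.00248, and LGALS4 and KRT20 had 0.0183 and 0.0132. The markers were thus split, with 6 of the 14 above 11 FPKM. The adhesion and brush border genes EPCAM, CDH1, VIL1 and CDH17, and also LGALS4 and KRT20, were near 0 and go against the label. CDX1, CDX2, ESRP1, CEACAM5 and CEACAM6 of the list were not in the table. On a separate list of 14 absorptive enterocyte markers, 4 were in the table, and these were split too. ALPI passed the filter, with 7.84 FPKM in DMSO library 2, its lowest value, and 20.8 in GIA library 2, its highest. CEACAM7 and ANPEP were near 0, at 0.0673 and 0.00716 FPKM over the 6 libraries, as was KRT20. The mesenchymal filament gene VIM had 147 to 160 FPKM, and it was named after its values were seen. The fibroblast markers were split as well: LUM had 173 FPKM, DCN 12.8, PDGFRB 4.22 and COL1A1 2.52, while FAP had 0.738, THY1 0.0855, DPT 0.00353 and COL3A1 0.00128. The summed level of the 8 fibroblast markers in the table was 179 to 196 FPKM with DMSO and 175 to 222 with GIA, nearly all of it LUM and DCN. Of the leukocyte markers, 4 of 10 were in the table and summed to 17.9 to 24.7 FPKM with DMSO and 17.0 to 23.1 with GIA. That sum was almost wholly CD68 (20.2 FPKM), with PTPRC at 0.00401, LYZ at 0.00517 and CD14 at 0.0854. Of the endothelial markers, 6 of 8 were in the table and summed to 3.03 to 3.25 and 2.74 to 3.57, almost wholly ESAM (2.91), with PECAM1 at 0.0862 and VWF at 0.00272. All 6 libraries are labelled as the same cell line, and the identity of the cells was not tested beyond these levels. In bulk RNA, fewer cells of a type and less RNA per cell cannot be told apart. The part of any other cells in the mucin levels was not tested.

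**Figure D1:**
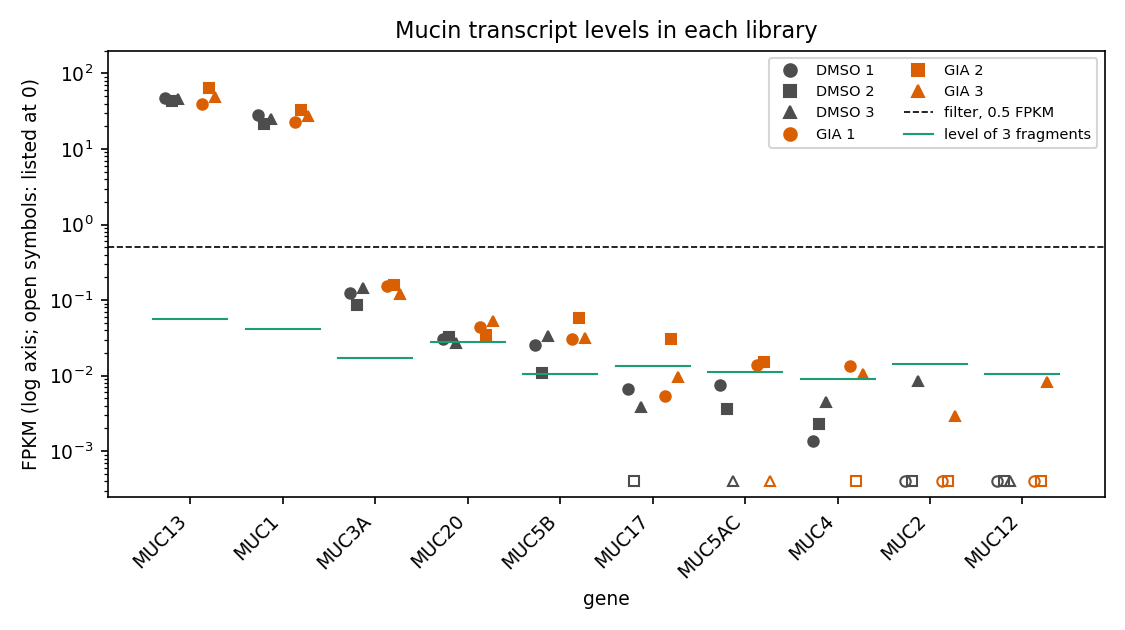
FPKM (log axis) of the 10 mucin genes, ordered by their mean, in each of the 3 DMSO libraries (grey) and 3 GIA libraries (orange); symbols give the library number, open symbols at the bottom are values listed at 0, the dashed line is the filter of 0.5 FPKM and green bars mark the level that 3 fragments would give in the library where that level is highest. MUC13 and MUC1 stand above 20 FPKM in every library, and the other 8 genes lie below the filter in every library.

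MUC13 is a membrane mucin of the gut surface with growth factor-like domains outside the cell. Its gene (ENSG00000173702) lies on chromosome 3 (124905442 to 124934751, minus strand, GRCh38) and had the highest level of the 10, above 97.4% of the genes of the table. The DMSO libraries 1 to 3 had 47.4, 43.3 and 46.6 FPKM, and the GIA libraries 1 to 3 had 38.9, 64.5 and 48.8. The 3 DMSO values lay close together, while the GIA values held both the lowest and the highest of the 6, so the groups overlapped. The mean was 45.7 ± 2.16 FPKM in the DMSO group and 50.7 ± 12.9 in the GIA group (SD, n = 3). On the log2 scale GIA stood 0.15 above DMSO (SE 0.14, 95% interval -0.18 to 0.47), and edgeR gave an adjusted p of 0.888. Without GIA library 2 it was -0.06, and without GIA library 1 it was 0.30. The sign of the MUC13 difference therefore rested on 1 library. Of the 5 fibroblast markers tested, 4 were highest in GIA library 2 (LUM 197 FPKM, DCN 15.96, PDGFRB 5.38 and COL1A1 3.17), while FAP was lowest there (0.661). Of all tested genes, 29.6% were highest in that library and 23.9% lowest. LUM and DCN were lowest in GIA library 1 (157 and 11.2 FPKM), and PDGFRB and COL1A1 in DMSO library 2 (3.77 and 2.23). Their part in the MUC13 values was not tested.

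MUC1 is a membrane mucin whose outer part is shed or stays bound to a short tail that is phosphorylated inside the cell. Its gene (ENSG00000185499) lies on chromosome 1 (155185824 to 155192915, minus strand). The DMSO libraries had 28.0, 21.1 and 24.9 FPKM and the GIA libraries 23.1, 32.6 and 27.4. As for MUC13, the GIA library 2 was the highest of the 6, and the groups overlapped. The mean was 24.7 ± 3.45 FPKM in the DMSO group and 27.7 ± 4.77 in the GIA group (SD, n = 3). On the log2 scale GIA stood 0.16 above DMSO (SE 0.13, 95% interval -0.12 to 0.45), and edgeR gave an adjusted p of 0.875. Leaving out GIA library 2 gave 0.03, and leaving out DMSO library 2 gave 0.06. Leaving out DMSO library 1 or GIA library 1 gave 0.26 and 0.28. With GIA library 1 left out, MUC13 and MUC1 both had an unadjusted p under 0.05 by edgeR (0.0135 and 0.0346), as did 10.3% of tested genes in that fit, and the adjusted p values were 0.469 and 0.471. With all libraries, the 95% interval of the GIA to DMSO ratio ran from 0.884 to 1.39 for MUC13 and from 0.919 to 1.36 for MUC1.

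**Figure D2:**
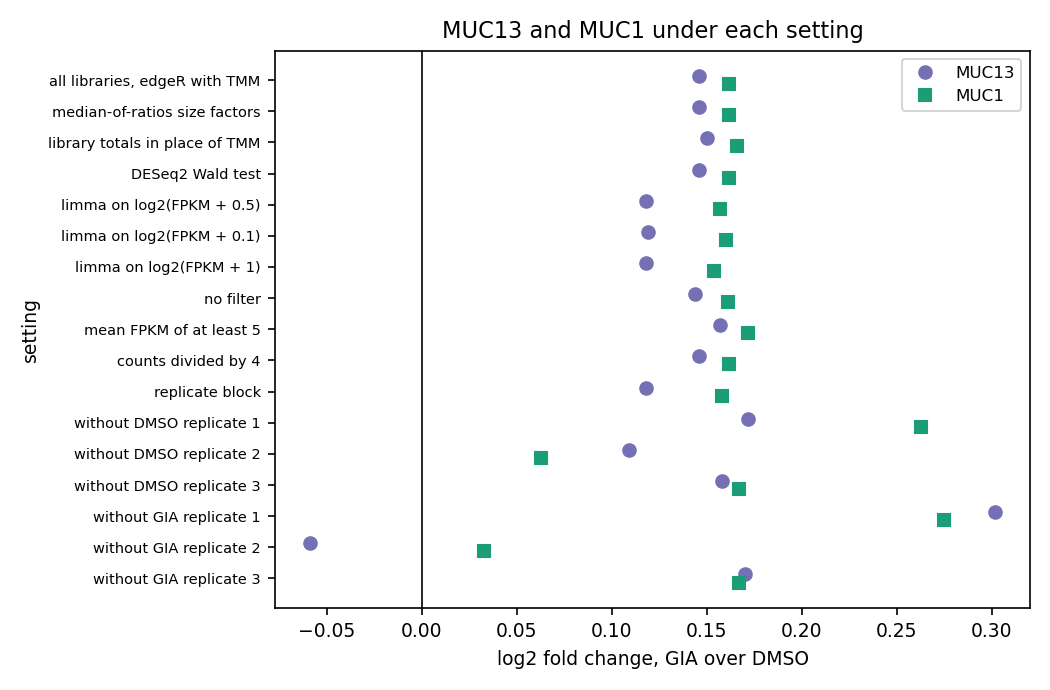
Log2 fold change, GIA over DMSO (x axis), of MUC13 (circles) and MUC1 (squares) with all libraries and under each of 16 alternatives (y axis). Leaving out GIA library 2 moves MUC13 to -0.06 and MUC1 to 0.03, and the 10 alternatives that keep all libraries lie between 0.12 and 0.17.

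**Figure D3:**
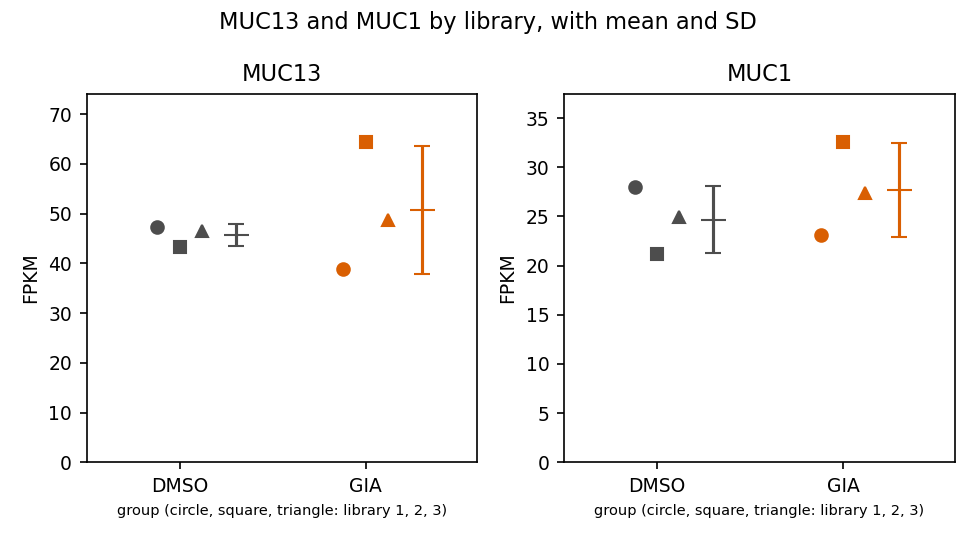
FPKM of MUC13 and MUC1 in each library (points; circle, square and triangle are libraries 1, 2 and 3 of the group), with the group mean and SD over 3 libraries beside them (bars). In both genes the square of the GIA group, library 2, is the highest value (64.5 and 32.6 FPKM), and the groups overlap.

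MUC13 and MUC1 varied more between libraries of 1 group than most genes of their level. The within-group SD of log2 CPM (counts scaled to library size with TMM) was 0.257 for MUC13, above 98.7% of 819 tested genes whose mean FPKM was within 1.5-fold of it, and 0.223 for MUC1, above 98.4% of 1572 such genes. The median SD of those genes was 0.048 and 0.053. Without GIA library 2 the SD was 0.143 for MUC13 and 0.193 for MUC1, above 98.2% and 98.8% of the same genes. Relative to its 6-library mean of log2 CPM, MUC13 lay at 0.43 in GIA library 2 and at -0.29 in GIA library 1, and MUC1 at 0.32 and -0.16. MUC1 lay lowest in DMSO library 2 (-0.29). The ratio of MUC13 to MUC1 in FPKM stayed between 1.69 and 2.05 in the 6 libraries, and MUC13 held 62.5% to 67.1% of the summed level of the 10 genes. Over all tested genes, GIA library 2 was the highest of the 6 libraries for 29.6% and the lowest for 23.9%.

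The genes whose pattern over the 6 libraries was most like that of MUC13 were DNAJC12, RNF182 and PC, with root mean square differences of 0.027, 0.042 and 0.043 in centred log2 CPM, against a median of 0.233 over 11937 genes with a mean of at least 1 FPKM. DNAJC12, a co-chaperone gene, had 12.1, 10.8 and 11.3 FPKM with DMSO and 9.92, 15.96 and 12.1 with GIA. RNF182 encodes a ubiquitin ligase, and PC encodes pyruvate carboxylase. Each of the 3 was highest in GIA library 2 and lowest in GIA library 1, as MUC13 was. MUC1 was at 0.106 from MUC13, and 1.36% of the genes were closer. These genes were selected from many with only 6 values each, and the likeness is a description.

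**Figure D4:**
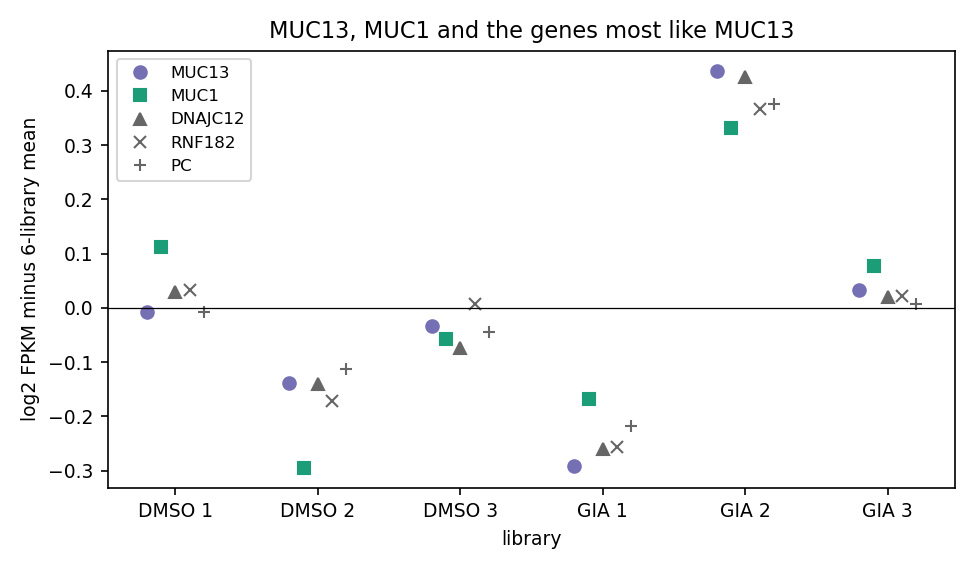
log2 FPKM of MUC13, MUC1 and the 3 genes most like MUC13, each minus its own mean over the 6 libraries (y axis), in each library (x axis). All 5 genes are highest in GIA library 2, and all but MUC1, which is lowest in DMSO library 2, are lowest in GIA library 1.

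The bases before the starts of MUC13 and MUC1 are shown because these are the members with a level above the filter, and those of MUC2 because it is the main gel-forming mucin of the colon and was near 0 here. RefSeq (GRCh38.p14) gave a start region for 7 of the 10 members; MUC5AC, MUC5B and MUC20 were not analysed here. Each sequence is the 250 bases before the annotated start, 5′ to 3′ on the strand of the gene, at chr3:124934752-124935001 (minus), chr1:155192916-155193165 (minus) and chr11:1074624-1074873 (plus). Capitals mark matches to any of the motifs searched on both strands.
MUC13: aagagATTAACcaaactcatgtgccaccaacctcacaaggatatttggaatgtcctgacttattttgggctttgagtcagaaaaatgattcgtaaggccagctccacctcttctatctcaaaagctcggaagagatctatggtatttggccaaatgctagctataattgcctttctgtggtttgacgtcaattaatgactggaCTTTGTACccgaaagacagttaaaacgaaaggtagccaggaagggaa
MUC1: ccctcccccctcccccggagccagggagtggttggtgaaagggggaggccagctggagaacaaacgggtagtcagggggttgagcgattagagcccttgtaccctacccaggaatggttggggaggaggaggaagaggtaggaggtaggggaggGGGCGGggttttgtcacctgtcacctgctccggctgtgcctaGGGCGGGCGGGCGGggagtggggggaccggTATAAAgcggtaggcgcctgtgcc
MUC2: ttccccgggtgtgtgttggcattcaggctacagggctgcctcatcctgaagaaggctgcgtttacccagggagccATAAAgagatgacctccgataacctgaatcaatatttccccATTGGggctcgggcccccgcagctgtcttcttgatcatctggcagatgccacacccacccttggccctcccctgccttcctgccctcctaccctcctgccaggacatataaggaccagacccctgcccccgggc
The MUC13 region had 41.6% G and C, higher than only 15.6% of 35114 such regions in the table, whose median was 58.0%. It held none of the core promoter boxes searched: no GGGCGG (the GC box, in 42.6% of all regions), no CCAAT (32.0%) and no TATAAA (10.7%). Its matches were GTTAAT, a core bound by HNF1 factors and found in 6.23% of regions, beginning 245 bases before the start, and CTTTGNNC, the core bound by TCF factors (12.9%), beginning 47 bases before it. The MUC1 region had 66.0% G and C, 4 GGGCGG matches of which 3 overlap each other, and a TATAAA beginning 24 bases before the start. RefSeq also gave another MUC1 start, whose region (chr1:155192910-155193159) is not shown. There the TATAAA begins 30 bases before the start. The short core of CDX factors, TTTAT (32.7%), is contained in TATAAA read on the other strand, so the MUC1 match to it is the same site. The MUC2 region had 59.6% G and C, with CCAAT beginning 134 bases and TTTAT 175 bases before the start. The remaining motifs were the hypoxia response cores ACGTG (18.5%) and GCGTG (32.2%), the GATA sites TGATAA (6.66%) and AGATAA (9.17%), the FOXA site TGTTTNC (15.5%) and the STAT site TTCNNNGAA (6.57%). None of these was found in the regions of MUC13, MUC1 or MUC2, but other members held some of them. GCGTG was found in the regions of MUC4 and MUC12, TGTTTNC and TTCNNNGAA in that of MUC4, and TGATAA at 3 places in that of MUC17. A match is a description of letters, and its absence says only that these letters are not in this window.

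Tandem repeats bear on how mucin reads can be counted, and the repeat of MUC1 is shown as the example. In the longest GENCODE 29 transcript of MUC1 (4170 bases) the repeat has a period of 60 bases, and its commonest form, in 1 of the possible phases, occurs 19 times without a mismatch within the coding part of exons 2 to 6 of 11 (chromosome 1, 155188590 to 155191880, GRCh38).
MUC1 repeat: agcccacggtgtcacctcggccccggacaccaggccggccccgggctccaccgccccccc
Of all 50-base windows of that transcript, 42.4% occurred in it more than once. The share was 61.5% for MUC12, 29.2% for MUC5B, 28.3% for MUC4, 21.4% for MUC5AC and 19.7% for MUC20. It was 8.60% for MUC17, 1.86% for MUC3A and 0% for MUC13. The single coding MUC2 transcript used from that release was only 393 bases long and gives no such share for the whole gene. For MUC20, 69.1% of windows were shared with another gene, MUC20P1 or MUC20-OT1, while MUC5AC and MUC5B shared under 1% with each other. How the authors' counting placed reads from repeats was not given in the sources used here, so levels of the repeat-rich members are less certain than that of MUC13.

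The other membrane mucins lay far below MUC13 and MUC1. MUC3A and MUC20 were above the level of 3 fragments (12 estimated counts) in all 6 libraries, and MUC4, MUC17 and MUC12 in at most 2. MUC3A, of the cluster on chromosome 7 in which MUC3A, MUC12 and MUC17 follow each other within gaps of 1.28 and 1.12 kb, was the third in level. It had 0.126, 0.0863 and 0.144 FPKM with DMSO and 0.156, 0.158 and 0.119 with GIA. These levels overlapped between groups and stood 199-fold below the mean of MUC1. A fit with no filter on low values put GIA 0.28 above DMSO on the log2 scale (SE 0.25, 95% interval -0.30 to 0.86), with an adjusted p of 0.779 over 30676 genes by edgeR. Its counts were 62 to 135 a library.

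MUC20, a membrane mucin reported to bind the receptor MET, lies on chromosome 3 with MUC4 5.64 kb beside it. It had 0.0308, 0.0328 and 0.0271 FPKM with DMSO and 0.0445, 0.0343 and 0.0535 with GIA, or 13 to 27 estimated counts a library. MUC20 was the only member whose groups did not overlap, which is 10.0% of the members against 11.2% of tested genes, and its nearest values were 0.0343 with GIA and 0.0328 with DMSO. Its log2 fold change with no filter was 0.54 (SE 0.41, 95% interval -0.41 to 1.48; adjusted p = 0.751 by edgeR). The model of the noncoding transcript MUC20-OT1 shares 19081 bases with that of MUC20 on the same strand and had 1.38 to 1.80 FPKM. Reads given to MUC20 may therefore belong to MUC20-OT1, and its level is uncertain.

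MUC4, which can bind the receptor ERBB2, had 0 to 22 estimated counts a library. MUC17, an enterocyte glycocalyx mucin, had 0 to 35, of which the 35 were in GIA library 2. MUC12, another colonic membrane mucin, was listed at 0 in 5 libraries and had 11 estimated counts in GIA library 3. The level that 3 fragments (12 estimated counts) would give is at most 0.00906 FPKM for MUC4, 0.0133 for MUC17 and 0.0104 for MUC12. MUC4 exceeded 12 counts in 2 libraries, MUC17 in 1 and MUC12 in 0. No fold change is given for these genes, nor for MUC5AC and MUC2, since every DMSO library lay under that level.

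The secreted, gel-forming mucins summed to 0.0145 to 0.0721 FPKM in a library, most of it from MUC5B. All 3 lie on chromosome 11, with gaps of 47.4 kb from MUC2 to MUC5AC and 21.9 kb from MUC5AC to MUC5B. MUC5B, best known from airway and salivary mucus, had 0.0257, 0.0108 and 0.0340 FPKM with DMSO and 0.0308, 0.0571 and 0.0317 with GIA. The groups overlapped, and GIA library 2 was again the highest. Its log2 fold change with no filter was 0.74 (SE 0.46, 95% interval -0.33 to 1.81; adjusted p = 0.751 by edgeR), and 0.40 without GIA library 2. MUC5AC, the mucin of the gastric surface, had 8, 4 and 0 estimated counts with DMSO and 18, 20 and 0 with GIA. MUC2 was listed at 0 in 4 libraries, with 8 estimated counts in DMSO library 3 and 3 in GIA library 3, and no library passed 12 counts (at most 0.0141 FPKM for MUC2). At this depth, then, a MUC2 transcript was not detectable above 3 fragments in any library.

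In the order of levels, the ranges over the 6 libraries did not overlap between MUC13 and MUC1, between MUC1 and MUC3A, or between MUC3A and MUC20. From MUC20 downward, each gene overlapped with the next: MUC5B, MUC17, MUC5AC, MUC4, MUC2 and MUC12. Of the 10 members, 6 were highest in GIA library 2 (MUC13, MUC1, MUC3A, MUC5B, MUC17 and MUC5AC), beside 29.6% of all tested genes. MUC4 was listed at 0 in that library, and MUC2 and MUC12 also.

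Most goblet cell genes, which make and organise secreted mucus, lay below the filter or were not in the table. Of 26 on the list, 15 were in the table and 3 passed the filter, and 0 rose or fell. The summed level of the list was 2.84 to 3.13 FPKM with DMSO and 2.71 to 3.47 with GIA. The branching enzyme GCNT3 had 1.40 ± 0.0962 FPKM in the DMSO group and 1.19 ± 0.0540 in the GIA group (SD, n = 3; log2 fold change -0.23, SE 0.10, adjusted p = 0.875 by edgeR). Its groups did not overlap, as for 11.2% of tested genes. SPINK4 had 0.356 and 0.701 FPKM, with 0 in DMSO library 2, SYTL2 0.527 and 0.509, and the trefoil peptide TFF1 0.239 and 0.158. The mucin-folding disulphide isomerase AGR2 had a 6-library mean of 0.0427 FPKM, the goblet cell factor SPDEF 0.0315 and the mucus protein FCGBP 0.0609. CLCA1, ZG16, TFF3 and ATOH1 were not in the table.

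Enzymes that build O-linked chains were present, and 0 of those tested rose or fell. Polypeptide GalNAc transferases attach the first sugar to serine or threonine. Of 20 on the list, 15 were in the table, 7 were tested, and 0 rose or fell, with a median log2 fold change of 0.0050 beside 0 over all tested genes. GALNT2 had 59.1 ± 1.91 FPKM in the DMSO group and 62.7 ± 3.81 in the GIA group (SD, n = 3; log2 fold change 0.08, SE 0.04), GALNT1 21.5 and 21.6, GALNT7 9.58 and 9.68 and GALNT6 8.38 and 8.04. Among 27 enzymes and transporters that extend, branch and cap the chains, 24 were in the table, 16 were tested and 0 rose or fell, with 6 positive, 10 negative and a median of -0.03. B4GALT1, a galactosyltransferase, had 64.1 and 67.1 FPKM, the sialyltransferase ST6GALNAC4 24.9 and 25.2, B4GALT5 16.2 and 16.6, and C1GALT1C1, the chaperone of the core 1 synthase, 14.1 and 14.5. B4GALT1 was highest in GIA library 2, with 73.3 FPKM against 63.0 to 65.0 in the other 5. The goblet cell sialyltransferase ST6GALNAC1 was listed at 0 in 5 libraries.

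Folding and release genes were tested in 21 of 30 cases, and 0 rose or fell (12 positive, 9 negative, median 0.03). Without GIA library 2 the median was 0.003. The endoplasmic reticulum chaperones CALR, HSPA5, CANX and the isomerase PDIA3 had 465, 287, 248 and 143 FPKM over the 6 libraries. Of the 21 genes, 10 were highest in GIA library 2 and 2 lowest, beside 29.6% and 23.9% of all tested genes. The summed level of the list was 1520 to 1560 FPKM with DMSO and 1520 to 1570 with GIA.

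Transcription factors reported to act on mucin genes were tested in 18 of 30 cases, and 0 rose or fell (10 positive, 8 negative, median 0.02). Without GIA library 2 the median was -0.009. Of the 18, 6 were highest in GIA library 2, beside 29.6% of all tested genes, and KLF4 was lowest there (6.02 FPKM against 6.63 to 7.82). HIF1A, the oxygen-regulated factor, had 66.5 FPKM in GIA library 2 and 58.3 to 60.4 in the others. KLF5, an intestinal crypt factor, had 58.5 FPKM there and 51.4 to 55.2 in the others. EPAS1 had 39.2 FPKM in both group means, and STAT3 25.0 and 24.7. HNF4A, an intestinal and liver factor, had 0.697, 0.656 and 0.714 FPKM with DMSO and 0.591, 1.21 and 0.801 with GIA, highest in GIA library 2 and lowest in GIA library 1 as MUC13 was (log2 fold change 0.33, SE 0.23, adjusted p = 0.875 by edgeR). CDX1 and CDX2 were not in the table. The part of these factors in the mucin levels was not tested.

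Receptors, cytoskeletal anchors, lectins and proteases that meet membrane mucins were tested in 21 of 27 cases, and 0 rose or fell (11 positive, 10 negative, median 0.0020). The galectin LGALS1 had 100.2 ± 2.43 FPKM in the DMSO group and 109.6 ± 6.61 in the GIA group (SD, n = 3), a log2 fold change of 0.13 (SE 0.05, adjusted p = 0.875 by edgeR). The linker MSN had 98.0 and 99.3 FPKM, the linker EZR 67.1 and 66.0, and LGALS3, a galectin that binds MUC1, 61.0 and 59.9. Of the receptors, EGFR had 29.5 FPKM over the 6 libraries, ERBB2 4.58 and ERBB3 1.90.

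**Figure D5:**
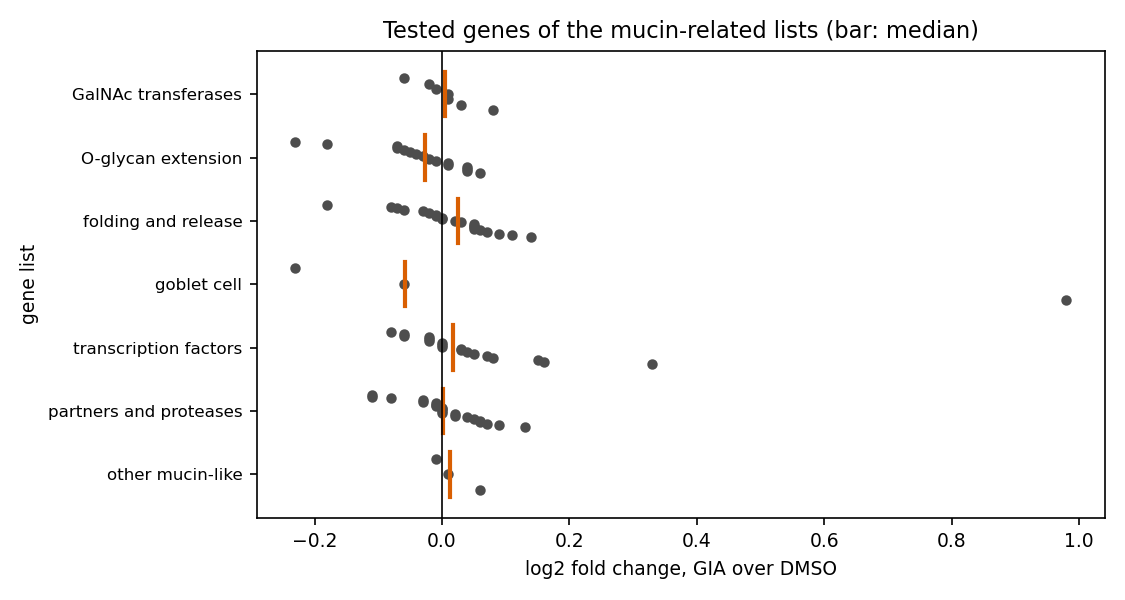
Log2 fold change, GIA over DMSO (x axis), of each tested gene (point) in 7 mucin-related gene lists (y axis), with the median of each list as an orange bar. Points spread on both sides of 0 in each list, no gene passed the test, and the point at 0.98 is SPINK4, at 0.356 and 0.701 FPKM in the group means.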

How the data were processed

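TRIzol RNA went into strand-specific SMARTER libraries, per the labels' protocols. Per the submitters' processing notes, the build was GRCh38 and the tools, with no stated roles, were DESeq2 1.22.2, StringTie 2.1.6, HISAT2 2.2.1, FastQC 0.10.1 and cutadapt. The table deposited by the authors gives FPKM and an estimated count for each gene and library, per the file headers. How the counts were made was not given in the sources used here. Low values pile up at 4 (6798 values, against 4183 at 3 and 2499 at 5), so 1 fragment may be worth about 4 counts. Columns were matched to libraries by their titles.

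Counts were already whole. Genes with a mean of at least 0.5 FPKM (13721) were tested with edgeR 4.0.16 in R 4.3.3 (quasi-likelihood, TMM, two-sided, Benjamini-Hochberg over all tested genes). Each standard error was the absolute log2 fold change divided by the root of its F value. No library was a copy of another: chi-square per degree of freedom was 2.80 to 10.5 over the pairs, and highest in pairs with GIA library 2. It was computed on counts divided by 4, for genes with high counts only. The members and lists were chosen with earlier results of these data known. All members were named, with the 4 genes of highest mean FPKM in each main list and the 3 genes most like the tested member that ranged most; other named genes were chosen after their values were seen. Group means without an SD are given for comparison of levels. Floors cover counting error only. Protein features were not analysed here. Alternatives were DESeq2 1.42.0, limma 3.58.1 on log2 (FPKM + 0.5), (FPKM + 0.1) and (FPKM + 1), other scalings and filters, counts divided by 4, a replicate block and leaving out each library. The fits of low members and the spread without GIA library 2 were added after seeing the data.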

Additional observations from a re-analysis of the deposited data

How the results depend on the processing

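Neither MUC13 nor MUC1 passed the threshold under any of the 16 alternatives, and 0 genes of the lists did. Adjusted p values lay between 0.469 and 0.999 for MUC13 and between 0.471 and 0.999 for MUC1. Over the 10 alternatives that kept all libraries, the log2 fold change was 0.12 to 0.16 for MUC13 and 0.15 to 0.17 for MUC1. Leaving out 1 library gave -0.059 (without GIA library 2, the only reversal) to 0.30 for MUC13 and 0.03 to 0.28 for MUC1. MUC13 held 64.05% to 64.95% of the summed level when 1 library was left out, and 64.55% with all libraries and as TPM. Over all tested genes, 0 passed by edgeR (630 at an unadjusted p under 0.05), by DESeq2 (651) and by limma (670), and leaving out 1 library gave 0 to 5 genes (5 without GIA library 3). The medians of 9 lists moved by more than their SD in 13 of 143 recomputations and changed sign in 13. With the replicate number as a block, 3 genes passed, neither MUC13 nor MUC1 among them, and MUC13 had 0.12 and MUC1 0.16. Deviations of same-numbered libraries from their group means had correlations of -0.036, -0.076 and 0.228 across genes. Pairs with unlike numbers had -0.195 to 0.193. Only the libraries numbered 3 correlated best with their own number. With 3 libraries a group, the deviations within a group are tied to each other. The check therefore cannot tell whether same-numbered libraries shared a culture or day, and the labels do not say. Without GIA library 2 and with no filter, MUC3A had 0.22, MUC20 0.69 and MUC5B 0.40. Depth limits the 5 lowest members, which exceeded 12 counts in at most 2 libraries each.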

Other observations

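Of 15 other mucins and mucin-like genes, 7 were in the table, 3 were tested and 0 rose or fell. Podocalyxin (PODXL), a sialomucin, had 50.8 ± 0.358 FPKM in the DMSO group and 51.3 ± 1.04 in the GIA group (SD, n = 3), a level near that of MUC13. MCAM, an adhesion molecule also listed as a mucin, had 39.1 ± 0.513 and 38.9 ± 0.650, and CD164, a small sialomucin, 21.3 ± 1.23 and 22.2 ± 0.0922. None of these 3 passed the edgeR test, and none of the 3 was highest in GIA library 2. The large membrane mucin MUC16 had 0.0846 ± 0.00361 and 0.106 ± 0.0250 FPKM, and the gastric mucin MUC6 0.0109 and 0.00900.

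Of 9 gastric mucous markers, 7 were in the table and 1 passed the filter. That gene, GKN1, had 0.419, 0.347 and 0.431 FPKM with DMSO and 0.657, 0.648 and 0.510 with GIA, with no overlap between groups (as for 11.2% of tested genes), and its log2 fold change of 0.59 (SE 0.25) did not pass the edgeR test (adjusted p = 0.875).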
